A study of Mus musculus with 4 samples.

Results

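Thy1/Dll4 DCs are here the dendritic cell barcodes that carried at least 2 of the transcripts of Thy1, Dll4, Lrp8, Car2 and Pla1a, with a summed level of at least 4 unique molecular identifiers (UMIs, counted molecules) per 10000 UMIs of the barcode. Only barcodes with at least 500 genes, at most 10% mitochondrial UMIs, at least 1 UMI of the migratory DC gene Fscn1 and no UMI of Cd3d, Cd3e, Cd3g, Cd79a or Cd79b were eligible. The rule found 625 cells among 8944 eligible DC barcodes: 65 of 4775 in the untreated capture and 560 of 4169 in the MC903 capture. The 2 captures held 15836 barcodes in all. The rule works on measured transcripts, so the 5 genes define these cells and their levels describe the choice.

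The cells were migratory DCs from ear-draining lymph nodes of Tnfsf4KI/+ mice, in which 1 allele of Tnfsf4, the gene of OX40 ligand, carries a blue fluorescent protein (BFP) reporter. Both groups were heterozygous for this allele. One group was untreated, and the other had its ears treated with MC903 (calcipotriol, a vitamin D3 analogue, known to make keratinocytes release TSLP) on days 0, 2 and 4, with lymph nodes taken on day 5. B220- CD11cint MHCIIhi cells were sorted into BFP+ and BFP- cells, 5000 and 7000 per treatment, stained with a hashtag antibody each and captured together. This gave 1 droplet capture (10x Genomics 3' v3) per treatment and 1 pool per population, with no replicate of either. The labels state neither how many mice went into a pool nor their age. Treatment, capture and sequencing library are the same split and cannot be told apart, so no test was possible and no p-value is given. Intervals are exact 95% intervals for counting error alone (Clopper-Pearson for shares, Poisson for levels and ratios).

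Migratory DCs carry antigen from skin to lymph node through afferent lymph, under the guidance of the chemokine receptor CCR7, and present it to T cells there. On the way they raise MHC class II and costimulatory ligands, and the type of ligand they show, OX40 ligand among them, influences which helper T cell programme follows. Dll4 is a membrane ligand of Notch receptors and Thy1 a small GPI-anchored surface protein best known from T cells. Lrp8 encodes the reelin and apolipoprotein E receptor ApoER2. Car2 encodes a cytosolic carbonic anhydrase, Pla1a a secreted phospholipase specific for phosphatidylserine, and Nrg1 the ErbB receptor ligand neuregulin 1.

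The pool of each cell was read from 4 hashtag oligonucleotides of 15 bases, which are shown because every BFP+ to BFP- comparison rests on them; capitals are not used since the whole oligonucleotide is the label.
untreated BFP+: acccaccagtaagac
untreated BFP-: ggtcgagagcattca
MC903 BFP+: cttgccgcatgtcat
MC903 BFP-: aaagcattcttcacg
A barcode was assigned to a pool where at least 50 counts of the 2 hashtags of its capture were seen and at least 80% came from 1 of them. By this rule 39 of 65 untreated Thy1/Dll4 DCs and 541 of 560 MC903 Thy1/Dll4 DCs had a label. The labelled untreated cells were 15 BFP+ and 24 BFP-, and the labelled MC903 cells 258 BFP+ and 283 BFP-. The untreated pools depended on the method. HTODemux, an alternative, called 7 of the 24 untreated BFP- cells BFP+, 3 BFP- and 14 negative. It called 20 of the 26 untreated cells without a label BFP+. Over all eligible untreated DCs it gave 1408 BFP+ and 612 BFP-, against 349 and 3216 by the dominant hashtag.

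The 5 genes lie on different mouse chromosomes in the GENCODE vM21 annotation of GRCm38: Thy1 at chr9:44043384-44048579, Dll4 at chr2:119325784-119335962, Lrp8 at chr4:107802261-107876840 and Car2 at chr3:14886273-14900770, all on the plus strand, and Pla1a at chr16:38396117-38433145 on the minus strand. All are protein-coding, as is Nrg1 at chr8:31814551-32884029 on the minus strand. RefSeq promoters (GRCm38.p6) were at hand for Dll4 and Lrp8 of these 6 genes. The 250 bases before the Dll4 start, chr2:119325534-119325783 on the plus strand, are shown because Dll4 helps to define the cells and genes of the NF-kappaB family are described below; capitals mark the match to the NF-kappaB motif.
Dll4 promoter: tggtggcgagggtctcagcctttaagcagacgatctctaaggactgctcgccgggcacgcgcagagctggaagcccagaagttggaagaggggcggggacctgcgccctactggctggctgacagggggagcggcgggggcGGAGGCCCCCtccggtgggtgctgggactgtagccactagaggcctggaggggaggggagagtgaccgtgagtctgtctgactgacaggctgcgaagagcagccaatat
Both strands of the 300-base window were searched for the STAT motif TTCNNNGAA, the RBPJ motif TGGGAA and the NF-kappaB motif. The Dll4 window held 1 NF-kappaB match, which lies on the minus strand and starts at -109 from the transcript start, and no match of the other motifs. Of 32851 RefSeq promoters, 8.46% held an NF-kappaB match, 8.30% TTCNNNGAA and 25.6% TGGGAA. The 3 Lrp8 promoters held 1 match, to TGGGAA, in the third. A match describes letters in the window and nothing about binding.

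Depth differed between the captures and between these cells and the rest. Untreated Thy1/Dll4 DCs had a median of 3802 UMIs per cell (range 1232 to 31915) and MC903 Thy1/Dll4 DCs 12672 (1797 to 35766). The other eligible DCs, called other DCs below, had medians of 2677 and 9314 UMIs. The cells summed to 405885 UMIs in the untreated and 7386202 in the MC903 capture, so untreated values carry a far larger counting error. Among labelled untreated cells the 15 BFP+ cells were deeper (median 12519 UMIs) than the 24 BFP- cells (3523.5). Barcodes that both captures share numbered 23 in all, and 2 MC903 Thy1/Dll4 DCs were among them. No doublet caller on transcripts was run. By hashtags, the HTODemux method called 96 eligible MC903 barcodes doublets, 9 of them Thy1/Dll4 DCs, and 37 eligible untreated barcodes, 0 of them Thy1/Dll4 DCs.

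Thy1/Dll4 DCs made up 1.36% of eligible DC barcodes in the untreated capture (95% interval 1.05 to 1.73%) and 13.4% in the MC903 capture (12.4 to 14.5%). Detection of 2 transcripts depends on depth, so the share was also taken with each barcode thinned to 2000 UMIs. It was then 0.661% (28 of 4238) untreated and 6.44% (278 of 4314) after MC903. At that depth any 2 detected genes meet the limit on the summed level, so detection alone decided. The set of barcodes differed as well. The 4238 and 4314 thinned barcodes stand against 4775 and 4169 eligible at full depth, so the MC903 set also held barcodes outside the eligible ones. The condition on Cd3 and Cd79 genes was applied to the thinned counts. In either capture, barcodes that lost all such UMIs in thinning could therefore enter the set. Among barcodes with 5000 to 20000 UMIs the shares were 1.98% (17 of 858) and 13.8% (500 of 3619). The share was thus higher in the MC903 capture at full depth and within 1 window of depth, with intervals that did not overlap. The same held at 1 common depth, for detection alone and in that differing set of barcodes. As a background for transcripts picked up from other cells, 0 of 183 untreated B cell barcodes met the 5-gene condition (interval up to 2.00%). Of MC903 B cell barcodes 1 of 336 did (0.298%). Their median depths were 3337 UMIs untreated and 3175 after MC903. The untreated share of 1.36% lies below the untreated limit, so these B cell barcodes are too few to set it apart from background.

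In both captures the share was higher among cells of the BFP+ pool. Untreated, 15 of 349 BFP+ DCs met the rule (4.30%, 2.43 to 6.99%) against 24 of 3216 BFP- DCs (0.746%, 0.479 to 1.11%). After MC903, 258 of 1271 BFP+ DCs did (20.3%, 18.1 to 22.6%) against 283 of 2799 BFP- DCs (10.1%, 9.02 to 11.3%). Among labelled MC903 Thy1/Dll4 DCs 47.7% were BFP+, against 28.7% of the other DCs. In the untreated capture the figures were 38.5% and 9.47%. With barcodes thinned to 2000 UMIs, where detection alone decided, 9.04% of BFP+ and 5.03% of BFP- DCs met the rule after MC903. Untreated, only 3 thinned BFP+ barcodes did (0.885%, 0.183 to 2.56%) against 10 BFP- barcodes (0.350%, 0.168 to 0.643%), so the difference was not detectable at that depth.

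**Figure D1:**
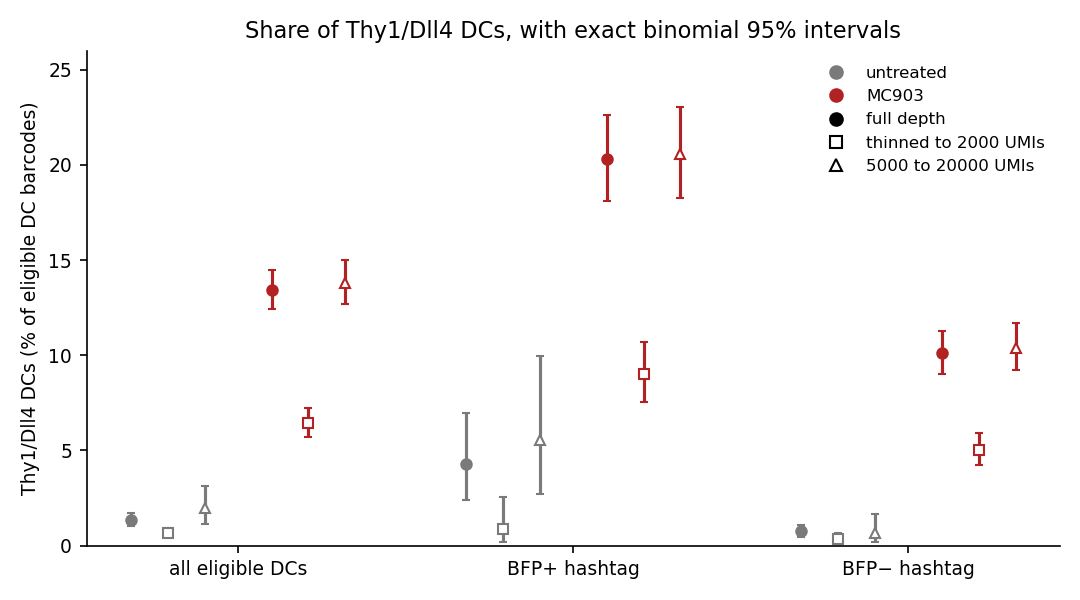
Share of eligible DC barcodes that are Thy1/Dll4 DCs (vertical axis, percent), for all eligible DCs and by hashtagged pool, in the untreated (grey) and MC903 (red) captures, with exact binomial 95% intervals. Filled circles are full depth and triangles barcodes with 5000 to 20000 UMIs. Squares are barcodes thinned to 2000 UMIs, where detection alone decided and the set of barcodes differed from the eligible ones. At full depth the 4 pools read 4.30%, 0.746%, 20.3% and 10.1%.

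The values that chose the cells are given here without a test. Levels are UMIs of a gene per 1000000 UMIs (CPM), summed over the cells of a pool. Thy1 stood at 140 in untreated BFP+, 48.5 in untreated BFP-, 278 in MC903 BFP+ and 275 in MC903 BFP- Thy1/Dll4 DCs, and at 2.71 to 8.47 in the other DCs of the 4 pools. Both MC903 pools were above both untreated pools for Thy1, and 15 of the 46 untreated Thy1 UMIs came from 1 cell. Dll4 stood at 236, 184, 165 and 163 in the same order of pools, with overlapping intervals between pools of a capture. Lrp8 stood at 149, 204, 143 and 156, and Car2 at 86.8, 146, 141 and 210. Pla1a stood at 203, 58.2, 233 and 179, lowest in the untreated BFP- cells. In B cell barcodes the level of Car2 was 9.94 untreated and 8.77 after MC903, and those of the other 4 genes were at most 2.39. These levels rest on few UMIs, and free RNA was not told apart from expression by the B cells.

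Few cells carried all 5 transcripts. In the MC903 capture 166 cells had 2 of the 5 genes, 205 had 3, 125 had 4 and 64 had all 5. In the untreated capture the numbers were 53, 8, 2 and 2, and 29 of the 65 untreated cells met the rule on 2 summed UMIs, against 5 of the 560 MC903 cells. Of cells with at least 2 of the genes, 9 untreated and 104 MC903 cells lay just inside the limit, at 4 to under 5 UMIs per 10000. Another 11 and 134 lay just outside, at 3 to under 4. The median summed level was 7.15 per 10000 in the untreated and 7.94 in the MC903 cells, up to 24.4 and 51.2. The group is therefore a range of a score with many cells near its limit, and no clustering was used to set it apart.

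After MC903, Pla1a was detected in 430 of the 560 cells, Lrp8 in 383, Car2 in 327, Thy1 in 318 and Dll4 in 309. Thy1 had the most UMIs per positive cell, with a median of 5, and 72 cells had 10 or more; it was the highest of the 5 genes in 155 cells. Dll4 positive cells had a median of 2 UMIs, and Car2, the most uneven of the 5, reached 60 UMIs in 1 cell and had 25.2% of its UMIs in 10 cells, against 11.2% for Thy1. The pairs most often found together were Lrp8 with Pla1a in 275 cells and Thy1 with Pla1a in 262. Thy1 and Dll4 were both found in 201 cells. In the untreated capture Lrp8 was detected in 42 of the 65 cells, Car2 in 32, Dll4 in 31, Pla1a in 26 and Thy1 in 17. Thy1 and Dll4 were both found in 7 untreated cells, so few of these carried both genes of the name.

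Each of the 5 genes was also measured in cells chosen on the other 4 alone (at least 2 of 4 detected and at least 3 UMIs per 10000). After MC903, Thy1 stood at 197 CPM in cells chosen without it and at 20.8 in the remaining eligible DCs, a log2 ratio of 3.24 (3.12 to 3.37). The log2 ratio was 3.31 for Dll4, 1.84 for Pla1a, 1.60 for Car2 and 1.01 for Lrp8. In the untreated capture the log2 ratio was 3.10 for Thy1, 2.95 for Dll4, 2.49 for Pla1a, 1.49 for Car2 and 0.93 for Lrp8 (0.01 to 1.72). All 5 genes were thus higher in cells that the other 4 had picked, in both captures, with Lrp8 the least so. The 5 genes were brought together with earlier results of these data known, so this describes the choice and is no independent support for the group. The cells picked also held more UMIs, and the part of depth in these ratios was not tested.

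The label of migratory DC was checked against markers. Ccr7 stood at 2612 CPM in untreated and 2066 in MC903 Thy1/Dll4 DCs, against 2507 and 2820 in the other DCs. The 7 general migratory DC genes (Ccr7, Cacnb3, Il4i1, Ccl22, Relb, Zbtb46 and Flt3) summed to 9244 and 8751, against 6463 and 8428. Most of the excess over the other DCs lay in Ccl22, whose levels are given below, and Ccr7 itself was lower after MC903. The cDC1 markers Xcr1 and Clec9a were at 0 in both captures of Thy1/Dll4 DCs. Wdfy4, another cDC1 marker, was present after MC903 and higher in cells with Thy1, as given below. The levels of the other cDC1 markers are not given, so Xcr1 and Clec9a alone do not place the cells outside cDC1. Cd207 (langerin), a Langerhans cell marker, had 0 UMIs untreated and a level of 0.14 after MC903. Under the same form of rule, 3 of 560 MC903 Thy1/Dll4 DCs were also Langerhans-like (0.536%, against 5.60% of other DCs), 12 mature cDC1-like (2.14% against 11.6%) and 7 cDC2-like (1.25% against 0.720%). In the untreated capture 2, 4 and 2 of 65 cells met these rules, with intervals that overlap the shares of the other DCs for each class.

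Markers of other cells that use these genes were also read. Barcodes with a Cd3 UMI had been left out of both groups, so the T cell level was partly set by that condition. Genes of innate lymphoid and NK cells are not reported here. The T cell genes other than the excluded Cd3 genes (12 genes) summed to 217 CPM in untreated Thy1/Dll4 DCs, against 229 in other DCs, and to 162 against 147 after MC903. After MC903, Tcf7 and Cd8a made up most of that sum, at 108 and 42.5; Trbc2 was at 3.25, Trac at 2.57 and Lck at 1.08. Cd8a was higher than in the other DCs (14.5), while Trac, Trbc1, Trbc2 and Lck were not. Of the endothelial genes (6 genes) Tie1 was at 0, and Cdh5 and Kdr were at 0 and 7.39 untreated and 0.14 and 0.41 after MC903. Their sum after MC903, 47.8 against 36.1, was mostly Esam. Erythroid genes, relevant to Car2, summed to 0 untreated and 0.27 after MC903, and fibroblast genes to 4.93 and 0.677.

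**Figure D2:**
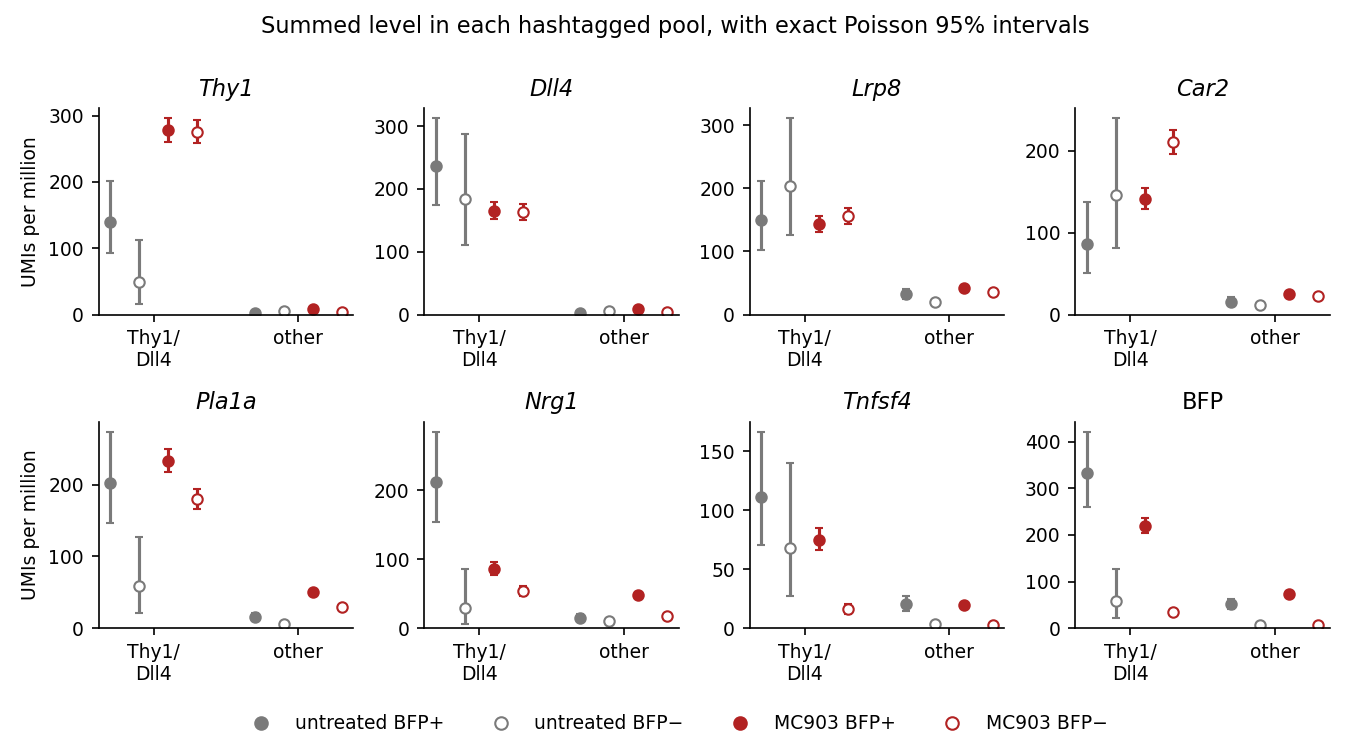
Summed level in CPM (vertical axis, from 0) of the 5 rule genes, Nrg1, Tnfsf4 and the BFP transcript in Thy1/Dll4 DCs and in other DCs of each hashtagged pool (filled, BFP+; open, BFP-; grey, untreated; red, MC903), with exact Poisson 95% intervals. Tnfsf4 reads 75.0 in MC903 BFP+ and 16.0 in MC903 BFP- Thy1/Dll4 DCs.

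Nrg1, Tnfsf4 and the reporter were not part of the rule but come from the same cells, so their difference from other DCs describes the group. Tnfsf4 stood at 93.6 CPM in untreated Thy1/Dll4 DCs against 8.03 in other DCs (log2 ratio 3.54, 2.99 to 4.07), and at 43.9 against 7.60 after MC903 (2.53, 2.29 to 2.77). BFP stood at 264 against 19.4 untreated and 124 against 26.9 after MC903. Both transcripts of the OX40 ligand locus were therefore higher in Thy1/Dll4 DCs of both captures. Within the MC903 BFP- pool, which was sorted as reporter negative, Tnfsf4 stood at 16.0 in Thy1/Dll4 DCs and 2.72 in the other DCs, and BFP at 34.6 and 6.67. Nrg1 stood at 118 against 11.5 untreated and 69.0 against 26.8 after MC903; 43.8% of the untreated Nrg1 UMIs came from 1 cell.

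Over all genes with at least 20 CPM in the higher group, 607 of 5099 (11.9%) were at least 1.5-fold higher and 975 (19.1%) at least 1.5-fold lower in untreated Thy1/Dll4 DCs than in other DCs. After MC903, 379 of 4904 (7.73%) were higher and 599 (12.2%) lower. Since the cells were chosen in this contrast, nothing is read from these counts. With TMM scaling, which shifts the median log2 ratio by 0.06 untreated and 0.13 after MC903, the MC903 split turned to 559 higher and 381 lower.

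The 12 genes most clearly higher in both captures included 3 for secreted or surface signals beside Tnfsf4. Cd70, the ligand of CD27 on T cells, stood at 111 CPM against 14.8 untreated and 72.3 against 21.0 after MC903 (log2 ratio 1.78, 1.62 to 1.94). Dkk2, which binds the Wnt co-receptors LRP5 and LRP6, stood at 128 against 16.0 and 70.1 against 19.4. Nrg2, the second neuregulin, stood at 49.3 against 7.98 and 33.0 against 7.99. After MC903 both pools held these transcripts: Cd70 stood at 91.8 in BFP+ and 57.1 in BFP- Thy1/Dll4 DCs, Dkk2 stood at 85.9 and 54.7, and Nrg2 had 131 and 96 UMIs. Of the UMIs in labelled untreated cells, 37 of Cd70 lay in BFP+ and 2 in BFP- cells, and 40 and 7 of Dkk2; Nrg2 had 9 and 6.

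Gpr183 (EBI2), an oxysterol receptor that positions immune cells in lymphoid tissue, stood at 798 CPM against 195 untreated and 921 against 224 after MC903, log2 ratios of 2.03 (1.86 to 2.20) and 2.04 (1.99 to 2.08). Ccnd2 (cyclin D2) stood at 342 against 34.0 and 559 against 99.7, and of the cell cycle list 0 of 5 tested genes were higher untreated and 1 of 4 after MC903 (Tyms), too few to set against the 11.9% and 7.73% of all genes. Myl7 (atrial myosin light chain) stood at 46.8 against 4.26 and 59.2 against 7.15. It was at 0 in untreated BFP- cells and at 88.6 in MC903 BFP+ and 36.5 in MC903 BFP- cells. Gprin2 had the highest log2 ratio of the group after MC903, 3.21 (2.93 to 3.49), at 42.5 against 4.61. Slco3a1 (an organic anion transporter, 38.9 against 4.95), Cacna1d (a calcium channel subunit, 60.8 against 12.2), Tagap (24.0 against 3.80) and Dact3 (27.2 against 6.82) completed the list, each also higher in the untreated capture. There they rest on few cells, with detection in 6.15%, 20%, 18.5% and 15.4% of the 65 Thy1/Dll4 DCs.

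Among the 12 genes most clearly lower, Ccl5 (RANTES) had the highest level. It stood at 3289 CPM against 11411 untreated and at 1207 against 8697 after MC903, log2 ratios of -1.79 (-1.87 to -1.72) and -2.85 (-2.88 to -2.82). H2-M2, a nonclassical MHC class I molecule, stood at 512 against 1532 and 132 against 857. Zmynd15 stood at 165 against 510 and 81.0 against 406, Npc2 (a lysosomal cholesterol carrier) at 584 against 1401 and 419 against 1130, and Clu (clusterin) at 140 against 461 and 19.1 against 103. In all 4 pools Ccl5, H2-M2, Zmynd15, Npc2 and Clu were lower in Thy1/Dll4 DCs than in the other DCs of the pool. Ccrl2, Rrad, Gclc, Cxcr4, Dnase1l3 and Ccl4 were lower too, with log2 ratios of -1.25 to -2.71 after MC903. Ccl4 had 0 UMIs in untreated Thy1/Dll4 DCs, where 3 counts give a log2 ratio of -1.62 at most. After MC903 Ccl4 was detected in 2.32% of Thy1/Dll4 DCs and 1.05% of other DCs. At 2000 UMIs these shares were 0.179% and 0.477%. The lower summed level of Ccl4 after MC903 thus rests on a small share of barcodes. Bpifa2, a salivary gland transcript, was also among the 12 genes, but 89.0% of the UMIs of Bpifa2 in MC903 other DCs came from 1 barcode. Without barcodes over 50000 UMIs its log2 ratio was -0.36 in place of -3.54.

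**Figure D3:**
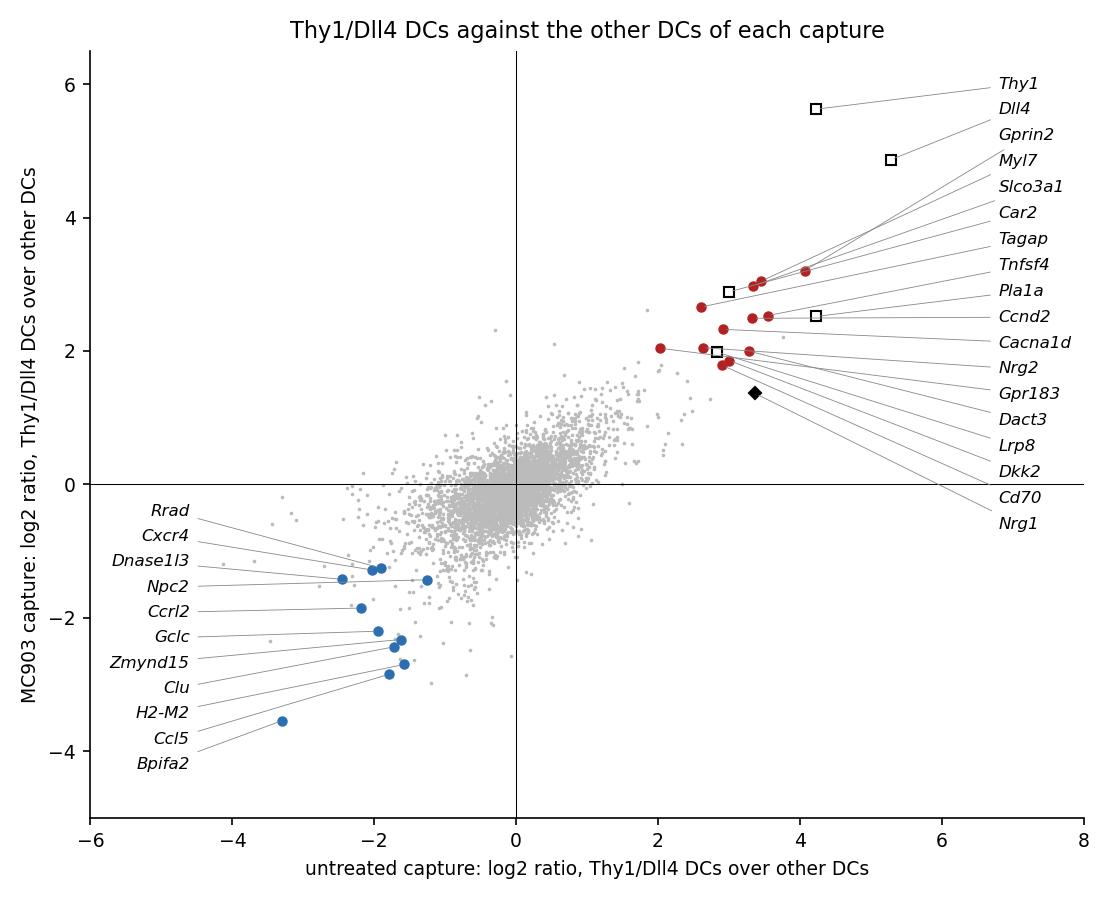
Log2 ratio of Thy1/Dll4 DCs over other DCs in the untreated (horizontal axis) and MC903 (vertical axis) capture for the 4693 genes with at least 20 CPM in the higher group of both captures and a UMI in each group. Open squares are the 5 rule genes, the diamond Nrg1, red and blue points the genes named as higher and lower; Gpr183 lies at 2.03 and 2.04 and Ccl5 at -1.79 and -2.85.

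Of the MHC class II genes tested, 9 of 12 were higher and 0 lower untreated (median log2 ratio 0.78, against -0.07 over all genes), and 6 of 11 higher and 0 lower after MC903 (0.59 against -0.09). Over all genes 11.9% were higher untreated and 7.73% after MC903. Ciita, the class II master regulator, stood at 180 CPM against 60.6 untreated and 175 against 86.8 after MC903. H2-DMb2, a chain of the peptide exchange factor H2-DM, stood at 323 against 99.1 and 392 against 153. H2-DMa (416 against 197 after MC903) and H2-Ab1 (4546 against 2318) were higher as well. Ctss, the protease that trims the invariant chain, was not among them, at 477 against 571 after MC903.

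Of the costimulatory and checkpoint ligands, 7 of 10 were higher and 0 lower untreated (median 1.71), and 7 of 11 higher and 0 lower after MC903 (0.79). Over all genes 11.9% and 7.73% were higher. Cd86 stood at 589 CPM against 149 untreated and 908 against 437 after MC903, and Cd80 at 328 against 76.8 and 330 against 217. Tnfsf9 (4-1BB ligand) stood at 476 against 98.7 and 177 against 55.8, and Cd200, a ligand for an inhibitory receptor, at 168 against 61.7 and 292 against 143. Cd83 differed by less than 1.5-fold, at 953 against 1006 after MC903. Tnfsf4 and Cd70, described above, belong to this list.

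Signal receiving genes were mixed, and several of their counts lie near the shares over all genes (11.9% higher and 19.1% lower untreated, 7.73% and 12.2% after MC903). In the list of the TSLP receptor and STAT5 feedback, 5 of 14 were higher and 1 lower untreated, and 4 and 1 of 14 after MC903. Those higher after MC903 were Cish (84.4 CPM against 26.2), Socs3 (77.7 against 27.1), Il2ra (157 against 69.7) and Stat5a (136 against 86.8); Crlf2, the TSLP receptor chain, stood at 23.7 against 22.9. Of 13 NF-kappaB genes 2 were higher and 0 lower in each capture, Nfkb1 (455 against 228 after MC903) and the inhibitor Nfkbia (2882 against 1912). Of the Notch pathway genes without Dll4, 1 of 9 was higher and 3 lower untreated, and 0 and 2 of 8 after MC903. Rbpj, the nuclear mediator of Notch, stood at 48.2 against 105 after MC903, and Jag1, another Notch ligand, at 38.7 against 32.4.

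Of the EGF family ligands and ErbB receptors, the few tested members were all ligands and all higher: Nrg1 and Nrg2 untreated, with Egf added after MC903 (35.2 against 7.35 CPM). Nrg1 and Nrg2 had already been named above. The list is too short to set against the 11.9% and 7.73% of all genes that were higher. Among chemokines 4 of 11 tested were lower untreated and 4 of 9 after MC903, against 19.1% and 12.2% of all genes. After MC903 they included Ccl5 and Cxcl16 (409 against 962). Ccl22 stood at 3750 against 1565 untreated but at 3316 against 2926 after MC903. Ccl17, like Ccl22 a CCR4 ligand, stood at 904 against 322 untreated and 582 against 578 after MC903. The untreated value of Ccl17 turned to a log2 ratio of -1.14 among barcodes with 5000 to 20000 UMIs and -1.85 in cells with 3 of the 5 genes.

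Of the enzymes of lipid mediators 4 of 6 tested were lower untreated and 2 of 3 after MC903, with 0 higher, against 19.1% and 12.2% of all genes lower. Ltc4s (leukotriene C4 synthase) stood at 19.5 CPM against 121 and Plaat3 had a log2 ratio of -1.69 after MC903. Of the lineage transcription factors 3 of 17 were higher untreated and 3 of 16 after MC903, against 11.9% and 7.73% of all genes; after MC903 these were Irf4 (134 against 88.8), Tcf4 (330 against 149) and Spib (80.3 against 32.5), and Id2 (727 against 1756) and Zfp366 (39.0 against 78.2) were lower. Among ion transport genes, the class of Car2, Atp1b1, a sodium pump subunit, stood at 96.0 against 28.7 after MC903 and was higher in both captures. GPI-anchored proteins, the class of Thy1, were mixed, with 5 of 10 higher and 2 lower after MC903 (7.73% and 12.2% over all genes); Cd24a (77.4 against 32.1) was among the higher. The list of immediate early and dissociation genes had 8 of 13 lower and 0 higher untreated, and 4 lower and 1 higher after MC903, against 19.1% and 12.2% of all genes lower; the part of tissue handling in other differences was not tested.

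Levels followed the number of rule genes detected. Among eligible MC903 barcodes with 5000 to 20000 UMIs, 1609 had none of the 5 genes, 1119 had 1, 475 had 2, 245 had 3, 116 had 4 and 55 had all 5. Median depth was higher along this series, from 8832 to 14659 UMIs. Gpr183 stood at 109, 270, 464, 792, 1150 and 1159 CPM from none to all 5. Tnfsf4 stood at 3.75, 8.01, 18.0, 28.4, 86.7 and 58.1, and Ccl5 at 12507, 6739, 3189, 1244, 700 and 628. Both genes thus already differed between barcodes with none and with 1 of the 5 transcripts, which lie outside the group. Apol7c stayed near its level up to 1 gene, 1303 and 1301, and was at 16.1 in barcodes with all 5.

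**Figure D4:**
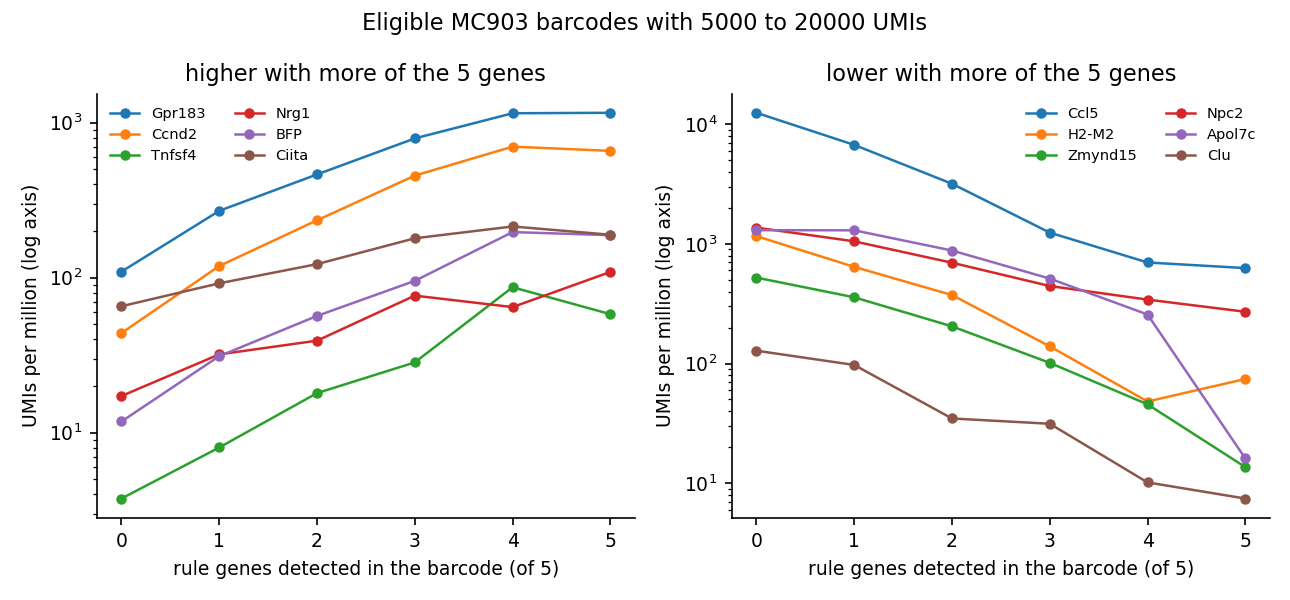
Level in CPM (vertical axes, log scale) of 12 genes in eligible MC903 barcodes with 5000 to 20000 UMIs, by how many of the 5 rule genes were detected (horizontal axes). Gpr183 goes from 109 to 1159 and Ccl5 from 12507 to 628 between barcodes with none and with all 5.

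Thy1 and Dll4 did not mark the same MC903 cells throughout. Of the 560 cells, 201 had both transcripts, 117 Thy1 only, 108 Dll4 only and 134 neither, at median depths of 14124, 12374, 11072 and 11379.5 UMIs. BFP+ cells made up 46.6%, 58.0%, 41.3% and 45.5% of their labelled cells, each above the 28.7% of the other DCs. Between the 318 cells with and the 242 without Thy1, 154 of 4695 genes (3.28%) were higher by 1.5-fold or more and 381 (8.12%) lower. Apol7c, an apolipoprotein L family gene, stood at 151 CPM in cells with both, 66.9 with Thy1 only, 1272 with Dll4 only and 654 with neither. It was therefore low in both groups with Thy1. Apoe, a ligand of the receptor that Lrp8 encodes, went the other way, at 502, 207, 97.5 and 138. Ccl6, Ccl9, Fgl2 and Slamf1 were also lower in cells with Thy1, and Calcb, Myl7, Nrgn, Wdfy4 and Plac8 higher; Wdfy4, needed for cross-presentation, stood at 39.0, 47.7, 18.6 and 6.31.

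Between the 309 cells with and the 251 without Dll4, 98 of 4640 genes (2.11%) were higher and 100 (2.16%) lower. Cd70 stood at 99.3 CPM in cells with Dll4 and 34.9 in cells without, Tnfsf9 at 231 and 103, and Nrg2 at 45.4 and 15.8. These 3 ligands were higher where Dll4 was. Fabp4, a fatty acid binding protein, stood at 55.5 and 156, and Cxcl10 at 17.9 and 50.4. Tnfsf4 stood at 69.6 in cells with both transcripts, 35.8 with Thy1 only, 31.2 with Dll4 only and 14.5 with neither, against 7.60 in the other DCs. Cells with both transcripts had the highest median depth, and the part of depth in these splits was not tested. Dll4 is itself a rule gene, so cells without it had met the rule on the other 4 genes alone. The same holds for Thy1, and the part of the rule in these splits was not tested.

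BFP+ and BFP- Thy1/Dll4 DCs were compared within each capture. After MC903, BFP+ cells had 97 of 4634 genes (2.09%) higher by 1.5-fold or more and 72 (1.55%) lower. In the other DCs these shares were 1.33% and 1.89%, and 3.13% and 4.66% in the untreated capture. In the untreated capture, with 15 against 24 cells, 898 of 5025 (17.9%) were higher and 1663 (33.1%) lower, and TMM scaling, a shift of 0.25, turned this to 1536 and 1265, so the untreated counts say little. After MC903, BFP stood at 219 CPM in BFP+ and 34.6 in BFP- cells (log2 ratio 2.66, 2.39 to 2.94) and Tnfsf4 at 75.0 and 16.0 (2.23, 1.82 to 2.67). The reporter and its gene thus followed the sort within the group. In the untreated capture BFP stood at 333 and 58.2 and Tnfsf4 at 111 and 67.9, where the interval of the Tnfsf4 ratio (-0.56 to 2.17) includes 0. Of the UMIs in untreated BFP- cells, 5 of 6 for BFP and 5 of 7 for Tnfsf4 came from 1 cell.

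Il12b, the p40 chain of interleukins 12 and 23, stood at 371 CPM in untreated BFP+ and 126 in untreated BFP- cells, and at 112 and 55.5 after MC903 (log2 ratio 1.01, 0.76 to 1.26). In the other DCs after MC903 it was the BFP- cells that were higher, 103 against 84.2. Tnfsf9 stood at 627 and 233 untreated and at 222 and 130 after MC903, and Cd70 at 178 and 19.4 and at 91.8 and 57.1; Cd70 in untreated BFP- cells rests on 2 UMIs. With pools from HTODemux the untreated log2 ratio turned to -0.39 for Il12b and -0.0067 for Tnfsf9. Dusp14, a phosphatase, stood at 342 and 126 and at 146 and 81.2, and Pbxip1 at 284 and 77.6 and at 235 and 156. Nrg1 stood at 212 and 29.1 and at 85.9 and 53.6. Of 8 tested T cell polarising and inflammatory cytokines 4 were higher in MC903 BFP+ cells and 0 lower: Il6, Il12b, Ebi3 (148 against 82.5) and Tnf; over all genes 2.09% were higher and 1.55% lower. Of the EGF family, Areg (amphiregulin) stood at 22.4 against 5.14.

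Lower in BFP+ cells of both captures were Plac8 (30.7 against 75.2 CPM after MC903), Serpinb1a (41.9 against 73.6), Fxyd2 (22.7 against 62.2), Ltc4s (13.0 against 24.6), Wdr91 (20.4 against 35.2) and H2-M2 (99.2 against 144). Of Fxyd2 UMIs in MC903 cells, 29.5% came from 1 cell. The untreated direction turned for H2-M2, to a log2 ratio of 3.26 (0.76 to 8.58) with pools from HTODemux and 0.85 (-0.42 to 2.39) among barcodes with 5000 to 20000 UMIs, and for Fxyd2, to 0.53 with HTODemux. Each of these 6 genes was also lower in BFP+ than in BFP- cells among the other DCs of both captures. Aldh1a2, which makes retinoic acid, stood at 9.15 against 30.3 after MC903, and Stmn1, of the cell cycle list, at 8.56 against 28.9. The rule genes Thy1 and Dll4 differed little between the MC903 pools, with log2 ratios of 0.01 (-0.12 to 0.14) and 0.02 (-0.15 to 0.19), whereas Car2 was lower in BFP+ cells (-0.58, -0.74 to -0.41) and Pla1a higher (0.38, 0.23 to 0.53).

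Between captures, MC903 Thy1/Dll4 DCs had 542 of 4816 genes (11.3%) higher by 1.5-fold or more and 651 (13.5%) lower than untreated ones. The intervals of 268 and 410 of these did not include 0. In the other DCs 164 of 4984 (3.29%) were higher and 206 (4.13%) lower. With TMM scaling, a shift of 0.12, the split in Thy1/Dll4 DCs turned to 773 higher and 470 lower. Among barcodes with 5000 to 20000 UMIs, where 17 untreated cells remained, 891 were higher and 1081 lower. Within the BFP+ pool 18.3% of genes were higher and 16.7% lower, and within the BFP- pool 19.1% and 30.1%. The 65 untreated cells limit this comparison, and the 2 captures differ in depth as well as in treatment, which cannot be told apart.

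Pkib (a protein kinase A inhibitor) stood at 48.2 and 38.8 CPM in untreated BFP+ and BFP- cells and at 212 and 256 in MC903 BFP+ and BFP- cells. Jaml, an adhesion molecule, stood at 24.1, 29.1, 129 and 146. Both MC903 pools were above both untreated pools for these genes, with log2 ratios over all cells of 2.48 (1.80 to 3.26) and 2.81 (1.82 to 4.02). The ratios in the other DCs were 1.75 and 1.21. Mylk (84.5 against 9.86), Cd81 (92.7 against 9.86), Dbn1 (57.5 against 2.46), Isg15 (192 against 41.9) and Ndrg2 (30.3 against 0, at least 2.04 on the log2 scale from 3 counts) were higher too. Untreated Mylk and Cd81 rest on 4 UMIs each and Dbn1 on 1, for a log2 ratio of 4.55 (2.06 to 9.85). The salivary transcripts Bpifa2, Smr3a and Amy1 were also higher (168, 115 and 31.7 against 7.39, 0 and 0). In MC903 other DCs the same 3 transcripts had 86.2% to 89.0% of their UMIs in 1 barcode.

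Lower after MC903 in Thy1/Dll4 DCs were Cxcl1, a neutrophil chemokine (66.5 against 448 CPM), Clu (19.1 against 140) and H2-M2 (132 against 512). Of the untreated Cxcl1 UMIs, 55.5% came from 1 cell. Clu and H2-M2 were spread over 32 and 46 untreated cells and had log2 ratios of -2.88 (-3.33 to -2.41) and -1.96 (-2.18 to -1.74), against -2.16 and -0.84 in the other DCs. Sod3, Calm4, Tnfsf11 (RANK ligand), Apol10b, Plat, Cd209d and Rasgef1b were lower as well, with log2 ratios of -2.38 to -3.71. Of these Plat and Tnfsf11 had over 50% of their untreated UMIs in 1 cell. Of the chemokine list 6 of 9 were lower and 0 higher, and of the Notch pathway list 6 of 8 were lower, with Jag1 at 38.7 against 96.1. Over all genes 13.5% were lower, and 30.1% within the BFP- pool.

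Thy1 was higher after MC903 within the group, 277 against 113 CPM, a log2 ratio of 1.29 (0.87 to 1.74), while in the other DCs it was 5.62 against 6.06. As a rule gene this is a description. Tnfsf4 and BFP were lower in MC903 than in untreated Thy1/Dll4 DCs, with log2 ratios of -1.09 (-1.58 to -0.57) and -1.09 (-1.38 to -0.79). Within the BFP+ pool alone the ratios were -0.56 (-1.18 to 0.12) and -0.60 (-0.96 to -0.23). Cish, a STAT5 target, stood at 84.4 against 17.2 (2.29, 1.24 to 3.61) in Thy1/Dll4 DCs and had a ratio of 2.60 in the other DCs. Vdr, the vitamin D receptor, stood at 35.1 against 9.86, with 4 untreated UMIs. Cd86 and Cd200 were higher after MC903, with log2 ratios of 0.63 and 0.80, and Tnfsf9 was lower, at -1.42.

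Some genes differed in opposite directions in Thy1/Dll4 DCs and in the other DCs. Apoe stood at 290 CPM after MC903 against 143 untreated in Thy1/Dll4 DCs, and at 58.1 against 176 in the other DCs; the log2 ratios were 1.02 and -1.59, and their difference was 2.62 (2.23 to 3.00, an approximate interval). Il12b stood at 81.1 against 249 in Thy1/Dll4 DCs and at 98.8 against 82.4 in the other DCs. Of the untreated Il12b UMIs in Thy1/Dll4 DCs, 46.5% came from 1 cell. Nrg1 had a log2 ratio of -0.78 in Thy1/Dll4 DCs and 1.23 in the other DCs; with 43.8% of the untreated UMIs in 1 cell, the ratio was 0.88 (-0.69 to 3.17) in the BFP- pool and 0.16 in cells with 3 of the 5 genes. Ccl17 had -0.64 and 0.84, and the first turned to 1.94 among barcodes with 5000 to 20000 UMIs.

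**Figure D5:**
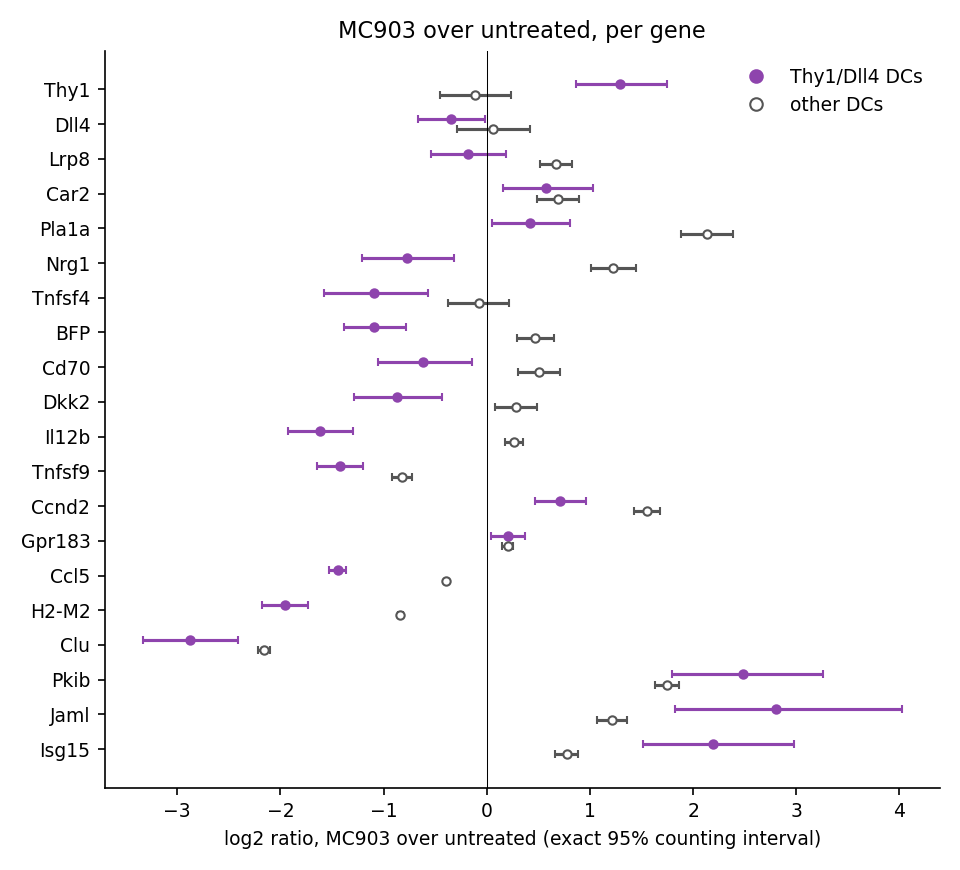
Log2 ratio of MC903 over untreated (horizontal axis, with exact 95% counting intervals) for 20 genes in Thy1/Dll4 DCs (purple) and in other DCs (open grey circles). Nrg1 lies at -0.78 and 1.23 and Pkib at 2.48 and 1.75.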

How the data were processed

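The authors deposited UMI counts per gene, reporter transcript and hashtag for 2 captures, as written by Cell Ranger (3.1.0 per the file headers) on GRCm38 per the submitters' processing notes; no source names the annotation used for counting. No depth normalisation had been applied. Deposited barcode, feature and hashtag lists (no unit) were used to name rows and columns. The members and gene lists were chosen with earlier results of these data known.

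Computed here (Python 3.11.15, numpy 2.4.6, scipy 1.17.1; R 4.3.3): the filters and rule given at the start; pools from the dominant hashtag, with HTODemux (Seurat 5.3.0, positive quantile 0.99) as an alternative; counts summed over the cells of a group and divided by their total; log2 ratios with exact intervals for Poisson counts, where a count of 0 is replaced by 3 counts and given as a bound. A gene was counted as apart at 1.5-fold with at least 20 CPM in the higher group. The 5 rule genes and the genes of the filters were left out of these counts. Named genes were Tnfsf4, BFP, Nrg1 and the rule genes, 12 each way against other DCs, 10 between captures and 6 between pools by the interval bound nearest 0, and up to 4 of each gene list with large ratios; the ranks skip antigen receptor, globin, ribosomal, mitochondrial, sex-linked and unnamed genes. The Thy1 and Dll4 splits and the series by number of rule genes were chosen after seeing the data and name genes with at most 25% of the higher group's UMIs in 1 barcode. Alternatives included TMM factors (edgeR 4.0.16). The ratio script was tested on simulated counts. With 1 capture per treatment, p-values and replicate error were not obtainable. Some genes that these rules name are not reported here.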

Additional observations from a re-analysis of the deposited data

Results flagged for a closer look

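None of the differences in direction below was tested, since each group is 1 pool. Between captures, some genes named in the report differed one way in Thy1/Dll4 DCs and the other way in the other DCs, with counting intervals that excluded 0 on both sides. The log2 ratios of MC903 over untreated, in Thy1/Dll4 DCs and then in other DCs, were -0.87 and 0.28 for Dkk2, -0.62 and 0.50 for Cd70, -1.62 and 0.26 for Il12b, -0.999 and 0.72 for Dusp14, -0.78 and 1.23 for Nrg1 and -1.09 and 0.47 for BFP. They were -0.31 and 0.06 for Nfkbia, -0.23 and 0.13 for Id2, -0.64 and 0.84 for Ccl17, -0.18 and 0.90 for Ccl22, -0.42 and 0.11 for Cxcl16 and -0.77 and 0.20 for Lgals1. Apoe, the 1 gene with the reverse order, had 1.02 and -1.59. In BFP- cells alone the ratio in Thy1/Dll4 DCs was 1.56 (-0.31 to 4.61) for Cd70, 0.88 for Nrg1 and 0.48 for Ccl17, the direction of the other DCs; untreated Cd70 had 37 UMIs in BFP+ and 2 in BFP- cells.

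Between pools, 5 genes had BFP+ over BFP- log2 ratios of opposite sign in the untreated and the MC903 capture of Thy1/Dll4 DCs. These were -2.54 and 0.55 for Clu, 1.97 and -0.51 for Cxcl1, 1.42 and -0.30 for Stat5a, 1.06 and -0.12 for Il4i1 and -2.86 and 0.70 for Ptgs2. The untreated values rest on 15 and 24 cells of very different depth.

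Hashtags of the other capture were counted in each capture. The untreated capture held 159 and 30 counts of the MC903 BFP+ and BFP- hashtags, with 3 counts in Thy1/Dll4 DCs. The MC903 capture held 1540 and 7812 counts of the untreated BFP+ and BFP- hashtags. Of these 742 lay in 368 Thy1/Dll4 DCs, with at most 7 in 1 cell.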

How the results depend on the processing

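No paired analysis was possible because the labels carry no replicate numbers and each treatment is 1 capture; for the same reason no replicate could be left out. Chosen after seeing the data were the window of 5000 to 20000 UMIs for the shares, the minimum of 3 summed UMIs, leaving out barcodes over 50000 UMIs and the single-pool comparisons. The share of Thy1/Dll4 DCs was higher after MC903 under every alternative run, but its size followed the rule. The untreated share was 0.251% with 3 of 5 genes, 0.942% at 6 UMIs per 10000, 0.661% thinned, 1.98% in the window and 0.754% with 3 summed UMIs. Without Dll4, Lrp8, Car2 or Pla1a it was 0.880%, 0.607%, 0.859% and 0.942%. The MC903 share was 9.45% with 3 of 5 genes, 16.6% at 3 and 9.28% at 6 UMIs per 10000, 14.7% at 5% mitochondrial UMIs and 6.44% thinned. Without Thy1, Dll4, Lrp8, Car2 or Pla1a it was 10.7%, 11.2%, 9.71%, 10.5% and 9.40%. By pool, thinning gave 0.885% (BFP+) and 0.350% (BFP-) untreated and 9.04% and 5.03% after MC903. A 90% hashtag limit gave 0.376% in untreated BFP- DCs and HTODemux 8.14% in MC903 BFP- DCs.

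Counts of genes apart depended on the filter. Higher and lower than in other DCs were 342 and 344 untreated and 218 and 291 after MC903 at 50 CPM. At 1 UMI in each group they were 1765 and 2479, and 1810 and 2847. With 3 of 5 genes 1292 were higher untreated, and with TMM scaling 381 were lower after MC903. Between captures the counts were 197 and 282 at 50 CPM, 1495 and 2542 at 1 UMI, 891 and 1081 in the window and 943 and 1208 with 3 of 5 genes. They were 975 and 1536 in BFP- cells, and 881 were higher in BFP+ cells. Between untreated pools they were 518 and 750 at 50 CPM and 459 and 3428 with HTODemux. TMM scaling gave 1536 higher, the window 2781 lower and the 90% limit 2838 lower. Between MC903 pools they were 36 and 14 at 50 CPM and 1324 and 1261 at 1 UMI, and HTODemux gave 131 lower. The causes were not tested, beyond the fewer or more genes that a filter admits.

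Of 1457 alternative values for 199 named gene ratios, 1106 stayed close, 320 moved and 31 reversed. Some of the 31 are bounds from a gene without UMIs in a group and show no change of direction. Against other DCs, untreated, the reversed log2 ratios were -1.14 (Ccl17) and 0.61 (Apoe) in the window. Bpifa2 and Ccl4 had no UMI in Thy1/Dll4 DCs there, so their values of 2.15 and 0.12 are upper bounds from 3 counts. With 3 of 5 genes the ratios were -1.85 (Ccl17), -0.31 (Jag1) and 0.65 (Apoe), and 0.066 was an upper bound for Ccl4. At 6 UMIs per 10000 Apoe gave 0.15. After MC903 Ccl17 gave -0.054 in the window, -0.29 with 3 of 5 genes and -0.13 at 6 UMIs per 10000. Between captures, Ccl17 gave 1.94 in the window, 2.37 with 3 of 5 genes and 0.48 in BFP- cells. Nrg1 gave 0.16 with 3 of 5 genes and 0.88 in BFP- cells, where Cd70 gave 1.56. Amy1 had no UMI in the untreated BFP- cells, so its value of -0.077 is a lower bound. Between untreated pools, HTODemux gave -0.39 for Il12b, -0.0067 for Tnfsf9, 0.53 for Fxyd2, 3.26 for H2-M2, -1.67 for H2-Oa and -0.37 for H2-DMa. The window gave 0.85 for H2-M2, -0.47 for Tnfsf4, -0.38 for H2-Oa and -0.11 for Ebi3, and the 90% limit -0.49 for H2-Oa and -0.050 for Apoe. The cause was not tested.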

Other observations

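The condition on Cd3 and Cd79 genes alone removed 58 untreated and 121 MC903 barcodes that met the rest of the rule, beside the 65 and 560 kept. Of all filtered barcodes with a Fscn1 UMI it kept 4775 of 7225 untreated and 4169 of 4961 after MC903. Of the MC903 Thy1/Dll4 DCs, 46 had over 20000 UMIs, as did 104 of the 3609 other DCs. The 19 MC903 Thy1/Dll4 DCs without a dominant hashtag had a median of 14731 UMIs and medians of 320 and 371 counts of the BFP+ and BFP- hashtags.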
